A study of Mus musculus with 19 samples.

Results

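The cadherins and protocadherins are cell adhesion proteins, and 83 of the 14443 genes in the count table belonged to them. The members were chosen by symbol: every gene named Cdh followed by a number, and every gene whose name starts with Pcdh. They comprised 4 type I cadherins, 13 type II cadherins, 2 other cadherins (Cdh13 and Cdh23), 4 delta-1 protocadherins, 5 delta-2 protocadherins, 2 other protocadherins (Pcdh15 and Pcdh20) and 53 clustered protocadherins. All 83 passed the filter on low counts, as did every other gene of the table, and they held 439 (Cdh1) to 34868 (Pcdh9) counts summed over the 19 libraries.

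Bulk RNA from mouse locus coeruleus, the brainstem nucleus of noradrenergic neurons, was sequenced as unstranded poly(A) libraries in 4 groups. WT_S6 (n = 4) and WT_SD6 (n = 5) were ABC-Ctrl mice that had slept or had been deprived of sleep for 6 h. CnB1KO_S6 (n = 5) and CnB1KO_SD6 (n = 5) were ABC-CnB1KO mice in the same 2 sleep states; CnB1, encoded by Ppp3r1, is the regulatory subunit of calcineurin, a phosphatase switched on by calcium. In the protocol both genotypes stand beside the injection of AAV-hSyn-Cre 4 weeks before dissection, a virus that expresses Cre from the synapsin promoter and so acts in neurons, while glia and vessel cells of the dissected tissue keep the gene. The labels state no age, sex or allele and do not spell out ABC. The question of the design is how sleep deprivation acts on the tissue in these 2 genotypes.

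Library totals ran from 3887298 to 7903253 counts. Ppp3r1 checked the genotype labels at 136 to 165 CPM in the 9 WT libraries and 120 to 152 CPM in the 10 CnB1KO libraries, which overlap. Averaged over sleep states it was 1.198-fold lower in CnB1KO (edgeR adjusted p = 0.00758). Within a sleep state the difference missed 0.05 (edgeR adjusted p = 0.104 after sleep and 0.177 after deprivation), so the CnB1KO tissue still held most of this RNA. The noradrenergic markers Th, Dbh and Slc6a2 were present in all 19 libraries, and Th ranged from 58.8 to 153 CPM. Markers of cerebellar granule cells, which the dissection could include, summed to between 466.7 and 1949 CPM. CPM are counts scaled to a common library total by TMM, a between-library normalization. Unless another tool is named, p-values are from edgeR's 2-sided quasi-likelihood test, with Benjamini-Hochberg adjustment over all 14443 genes. A gene was called, and is said to have risen or fallen, at an adjusted p under 0.05.

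Classical cadherins of types I and II bind like molecules on the neighbouring cell in the presence of calcium and hold the actin cytoskeleton through catenins. The delta protocadherins are encoded by single genes, adhere more weakly and have their own cytoplasmic partners. The clustered protocadherins are encoded by the alpha, beta and gamma arrays on mouse chromosome 18, where each neuron expresses a small set from alternative promoters, and their combinations serve self-recognition of neurites and neuron survival. In the annotation, 52 of the 53 clustered members were found, all on that chromosome and on the plus strand, while the other 30 members lay on 10 chromosomes.

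The member with the smallest p for genotype was Cdh22, a type II cadherin of the brain also known as PB-cadherin. It lies at chr2:165111507-165234853 on the minus strand (GRCm38). The stretch upstream of it is shown because calcineurin is known to activate the NFAT transcription factors, whose binding core is GGAAA. The 134 bases are the portion of the RefSeq promoter window (GRCm38.p6) that lies outside the annotated gene, at chr2:165234854-165234987, minus strand, written 5′ to 3′ with a match to the core as it reads on the opposite strand in capitals.

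Cdh22: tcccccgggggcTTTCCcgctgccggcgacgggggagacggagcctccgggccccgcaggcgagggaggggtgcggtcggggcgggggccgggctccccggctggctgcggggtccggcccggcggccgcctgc

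The match begins at position -238 from the RefSeq start of Cdh22, and the window has 85.1% G and C. Over windows of the same length and place, 36.7% of all 32851 RefSeq promoter windows hold the core on either strand, and over 250 upstream bases 55.6% do. Promoter windows were found for 21 member symbols, none of them clustered, and 11 of their 24 windows hold the core. Pcdh20, the other member whose window was extracted by the same rule, has 0 matches on either strand in its 250 bases. A match describes the letters of the window and is not a measured binding site.

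Among the libraries of sleeping WT mice Cdh22 stood at 86.1, 90.1, 91.3 and 93.3 CPM, and in the WT_SD6 libraries at 89.5, 89.6, 87.3, 84.9 and 91.6 CPM. The CnB1KO_S6 libraries had 103.9, 96.3, 104.5, 105.1 and 101.5 CPM, and the CnB1KO_SD6 libraries 101.8, 106.2, 105.2, 113.8 and 109.1 CPM. All 10 CnB1KO libraries thus lay above all 9 WT libraries, a separation in this direction seen for 0.0762% of all genes. After deprivation Cdh22 rose 1.21-fold in CnB1KO against WT (log2 fold change 0.27, SE 0.04, adjusted p = 0.00223). After sleep its log2 fold change was 0.18 (SE 0.04, adjusted p = 0.187), which missed the threshold although the groups did not overlap, as for 2.55% of all genes (1.11% after deprivation). Averaged over sleep states it was 1.17-fold higher in CnB1KO (log2 fold change 0.23, SE 0.03, adjusted p = 0.000434), and the difference between the 2 genotype effects was 0.09 (SE 0.06, adjusted p = 1). Deprivation itself left values of -0.03 (SE 0.04) in WT and 0.07 (SE 0.04) in CnB1KO on the log2 scale, with adjusted p of 0.903 and 0.631. In bulk tissue such a difference in RNA cannot be told apart from a different number of the cells that express the gene.

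Cdh22 was among the most even genes of the table. Its SD within groups was 0.05 on the log2 CPM scale, at percentile 1.65 of all genes. The call after deprivation was lost with the 2 compared groups alone (adjusted p = 0.0767) and with the oligodendrocyte marker score as a covariate (adjusted p = 0.11), although its log2 fold change was 0.25 to 0.29 with each library left out and 0.26 to 0.30 over the other alternatives. The averaged call held in all 33 alternatives, with adjusted p from 4.89e-07 to 0.0281. Markers of endothelial cells moved with genotype as well: 6 of 9 rose in CnB1KO on average (1.88% of all genes did), and their score (mean log2 CPM) was 5.07 to 5.53 in WT and 5.40 to 5.78 in CnB1KO. With this score as a covariate the averaged log2 fold change of Cdh22 was 0.25. In the same comparison 3 of 6 markers of pericytes and smooth muscle rose (Pdgfrb, Rgs5 and Vtn), 3 of 12 of oligodendrocytes (Mag, Ermn and Ugt8a) and 2 of 8 of microglia (C1qa and C1qc), and the part of these cells in the result for Cdh22 was not tested. Of the 52 other genes measured within 2 Mb of Cdh22, 0 were called in either genotype comparison, with 3 at an unadjusted p under 0.05 after sleep (10.1% of all genes) and 8 after deprivation (15.2%). On average 1 (Zfas1, lower) was called, against 3.09% of all genes, and 10 had an unadjusted p under 0.05 (23.1%).

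**Figure D1:**
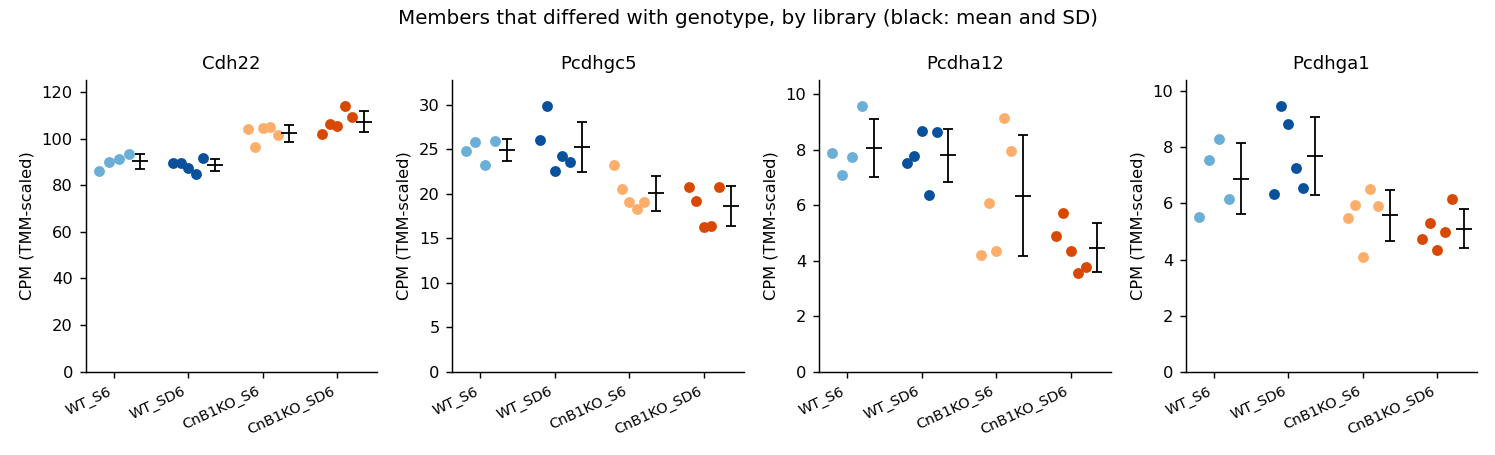
TMM-scaled CPM of the 4 members called for genotype averaged over sleep states, 1 point per library in the 4 groups, with the mean and SD of each group in black; each axis starts at 0. The 10 CnB1KO points of Cdh22 lie above the 9 WT points (84.9 to 93.3 CPM), whereas the genotypes overlap for Pcdhgc5, Pcdha12 and Pcdhga1.

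Cdh22 was the 1 member called between genotypes after deprivation, where 0.132% of all genes were called (0.0762% higher), and 20 members had an unadjusted p under 0.05 (15.2% of all genes). After sleep 0 of 83 members were called (all genes 0.0485%), with 7 at an unadjusted p under 0.05 (10.1%), and DESeq2 and limma voom also called 0. Averaged over sleep states 4 members were called against 3.09% of all genes, and 27 had an unadjusted p under 0.05 (23.1%). Cdh22 was higher (1.88% of all genes), and the clustered Pcdhgc5, Pcdha12 and Pcdhga1 were lower (1.21%).

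Pcdhgc5 is the last gene of the gamma array, in the C-type group whose promoters are not chosen at random. Its levels were 24.7, 25.8, 23.2 and 25.9 CPM in WT_S6 and 26.0, 29.8, 22.6, 24.2 and 23.6 CPM in WT_SD6. They were 23.3, 20.5, 19.1, 18.3 and 19.03 CPM in CnB1KO_S6 and 20.8, 19.2, 16.2, 16.3 and 20.7 CPM in CnB1KO_SD6. A single CnB1KO library, at 23.3 CPM after sleep, reached into the WT range, and after deprivation the genotypes did not overlap. Pcdhgc5 fell 1.30-fold on average (log2 fold change -0.37, SE 0.07, adjusted p = 0.0112), with -0.31 (SE 0.10, adjusted p = 0.312) after sleep and -0.44 (SE 0.09, adjusted p = 0.0761) after deprivation. The averaged call was lost with the oligodendrocyte score (adjusted p = 0.245) or the endothelial score (0.282) as a covariate, and in the FPKM (0.228 and 0.223 with pseudocounts of 0.1 and 1).

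Pcdha12, a variable alpha gene, had 7.88, 7.10, 7.73 and 9.56 CPM in WT_S6 and 7.53, 7.77, 8.69, 6.37 and 8.65 CPM in WT_SD6. In CnB1KO_S6 it spread from 4.19 to 9.13 CPM (4.19, 6.09, 4.37, 9.13 and 7.95), and in CnB1KO_SD6 it had 4.90, 5.73, 4.34, 3.55 and 3.78 CPM. Every CnB1KO_SD6 library was thus below every WT library, while 2 of the 5 CnB1KO_S6 libraries sat among them. Pcdha12 fell 1.47-fold on average (log2 fold change -0.56, SE 0.14, adjusted p = 0.0375).

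Pcdhga1, the variable gene at the head of the gamma array, had 5.52, 7.56, 8.30 and 6.1701 CPM in WT_S6 and 6.35, 9.47, 8.84, 7.27 and 6.55 CPM in WT_SD6. It had 5.49, 5.93, 4.09, 6.50 and 5.93 CPM in CnB1KO_S6 and 4.74, 5.30, 4.34, 4.97 and 6.172 CPM in CnB1KO_SD6. The genotypes overlapped after sleep and stood apart after deprivation, and the average fell 1.36-fold (log2 fold change -0.44, SE 0.11, adjusted p = 0.0429). Both genes rest on few reads, 16 to 70 counts a library for Pcdha12 and 15 to 67 for Pcdhga1. Of 32 alternatives, 19 ended the call of Pcdha12 and 22 that of Pcdhga1, with adjusted p of up to 0.605 and 0.546 in the fit with the oligodendrocyte score. Among them, the call of Pcdha12 was lost without any 1 of 11 libraries (1, 2, 3 and 4 of WT_S6, 7 of WT_SD6, 12, 13 and 15 of CnB1KO_S6, and 18, 19 and 20 of CnB1KO_SD6), with adjusted p from 0.0501 to 0.108. That of Pcdhga1 was lost without any 1 of 13 (2, 3 and 4 of WT_S6, 7, 8 and 9 of WT_SD6, 11, 12, 13 and 15 of CnB1KO_S6, and 17, 18 and 19 of CnB1KO_SD6), with adjusted p from 0.0502 to 0.0829.

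Beyond these genes, the clustered protocadherins as a group tended to have lower values in the deprived CnB1KO mice. After deprivation 51 of 53 had a negative log2 fold change between genotypes, against 48.4% of all genes, with a median of -0.24 against 0.01 over all genes. None of the 53 was called by edgeR or limma voom, 15 had an unadjusted p under 0.05, all of them lower (7.17% of all genes), and DESeq2 called Pcdha12 and Pcdhgc5. In 4 of them, Pcdha12, Pcdhb13, Pcdhga1 and Pcdhgc5, every CnB1KO library lay below every WT library, as for 0.942% of all genes. Pcdhb13 had 8.40 to 10.03 CPM in WT_SD6 and 4.62 to 7.36 CPM in CnB1KO_SD6 (log2 fold change -0.64, SE 0.17, adjusted p = 0.155).

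Of the 15 genes with an unadjusted p under 0.05, 10 were gamma, 4 beta and 1 alpha. Negative values came from 11 of 11 alpha, 19 of 21 beta and 21 of 21 gamma genes, with medians of -0.21, -0.21 and -0.26 on the log2 scale. The exceptions were Pcdhb3 and Pcdhb22, named here after their values were seen. After sleep the same comparison gave 40 of 53 negative values (all genes 46.5%) and a median of -0.06. That median was -0.10 without WT_S6 library 1, -0.09 without WT_S6 library 2 or CnB1KO_S6 library 14, and -0.02 without WT_S6 library 3. In 1 gene, Pcdhgc4, the groups did not overlap (lower, 1.77% of all genes). The genes of an array were measured in the same libraries and are not independent observations. Alpha genes share constant exons with each other, and so do gamma genes, with medians of 53.6% and 45.2% of exon bases in common with another gene. Reads from those exons cannot be assigned to 1 gene, and their part in the counts was not tested. Of the 21 beta genes, 3 share exons with another gene.

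**Figure D2:**
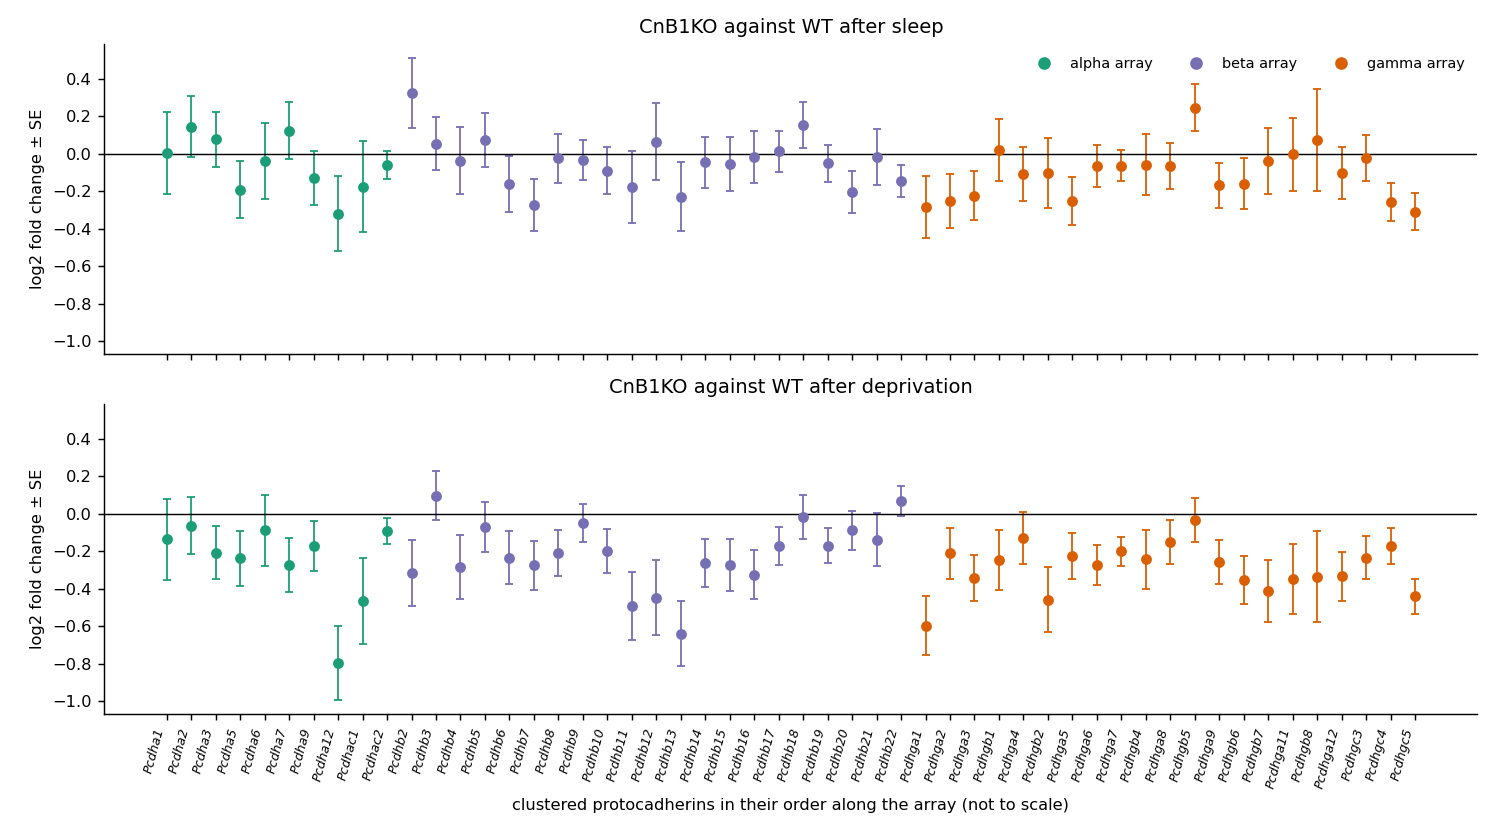
Log2 fold change of CnB1KO against WT with its SE for 52 clustered protocadherins in their order along the arrays (Pcdha10 had no match in the annotation), after sleep in the upper panel and after deprivation in the lower one. After deprivation the points of all 3 arrays lie below 0 with the exception of Pcdhb3 and Pcdhb22, from -0.80 to 0.10, and after sleep they scatter from -0.32 to 0.32.

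Summed over the 53 genes, the level was 789 to 892 CPM in WT_S6 (mean 839 ± 56.6, SD, n = 4) and 793 to 896 CPM in WT_SD6 (839 ± 50.3, SD, n = 5). It was 707 to 834 CPM in CnB1KO_S6 (786 ± 48.1, SD, n = 5) and 605 to 811 CPM in CnB1KO_SD6 (722 ± 78.5, SD, n = 5). The sums of the deprived groups overlapped in 1 library, CnB1KO_SD6 library 16, and CnB1KO_SD6 library 18 was the lowest of all 19. The gamma array made the largest part of the sum, with 391 ± 27.8 CPM in WT_SD6 and 324 ± 41.3 CPM in CnB1KO_SD6 (SD, n = 5 each). The alpha sum was 122 ± 5.64 and 108 ± 9.80 CPM in these groups, and the beta sum 326 ± 22.4 and 291 ± 30.3 CPM.

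**Figure D3:**
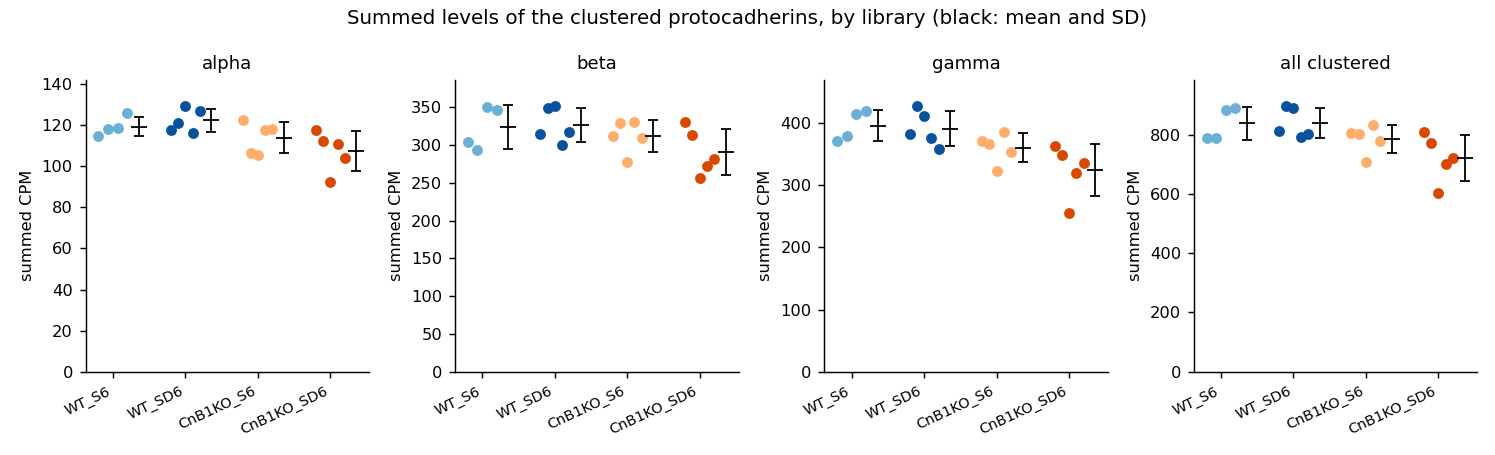
Summed TMM-scaled CPM of the alpha, beta and gamma arrays and of all 53 clustered protocadherins, 1 point per library, with the mean and SD of each group in black and axes from 0. CnB1KO_SD6 has the lowest mean in each panel, and its library 18 (605 CPM over all clustered genes) is the lowest.

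Deprivation within CnB1KO gave 48 of 53 negative values (all genes 52.8%) with a median of -0.15, which was -0.09 without CnB1KO_SD6 library 18 and -0.07 and -0.05 in the FPKM with pseudocounts of 0.1 and 1. Within WT it gave 25 of 53 (all genes 49.7%) with a median of 0.01. These comparisons share libraries with the genotype comparisons above, so they are other views of the same 19 libraries. The interaction of genotype and deprivation had 47 of 53 negative values (all genes 52.8%) and a median of -0.18, but 0 members and 0 genes of the table (0%) were called by edgeR, and 1 member had an unadjusted p under 0.05 (1.99% of all genes). DESeq2 and limma voom called 0 members as well. The 2 members with the smallest interaction p were Pcdhb2 (-0.64, SE 0.26) and Pcdha7 (-0.40, SE 0.21), both with an adjusted p of 1. Pcdhb2 ranged from 4.32 to 7.40 CPM after sleep and 6.184 to 8.42 CPM after deprivation in WT, and from 6.55 to 9.13 CPM and 4.49 to 9.03 CPM in CnB1KO. These ranges overlap in all pairs of groups.

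Marker scores of the same groups were not identical. Called for genotype after deprivation were 0 of 12 oligodendrocyte and 0 of 9 cerebellar granule cell markers (0.132% of all genes). Negative log2 fold changes were held by 0 of 12 and 8 of 9 of them (48.4% of all genes), with medians of 0.22 and -0.74. The oligodendrocyte score was 6.95 ± 0.11 in WT_SD6 and 7.22 ± 0.14 in CnB1KO_SD6 (SD, n = 5 each), and the cerebellar granule cell score was 6.61 ± 1.13 and 5.87 ± 1.12, with ranges that overlapped (4.92 to 7.67 and 4.37 to 7.23). With the oligodendrocyte score as a covariate the median of the clustered genes after deprivation was -0.14, with the cerebellar score -0.21, and with the endothelial score -0.25. Over the 33 alternatives the count of negative values was 46 to 51 of 53. The part of these cells in the values was not tested.

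Sleep deprivation by itself called no cadherin or protocadherin. In WT 0 of 83 members passed, against 1.14% of all genes, with 2 at an unadjusted p under 0.05 (11.6%). Pcdh20 had 30.2 to 37.0 CPM in WT_S6 and 34.4 to 47.9 CPM in WT_SD6 (log2 fold change 0.30, SE 0.12, adjusted p = 0.309). Pcdhgc4, a C-type gamma gene, had 53.1 to 62.3 CPM in WT_S6 and 37.6 to 53.4 CPM in WT_SD6 (-0.23, SE 0.10, adjusted p = 0.343). In both genes 1 of the 5 WT_SD6 libraries lay within the WT_S6 range.

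In CnB1KO 0 of 83 members passed for deprivation, against 0.692% of all genes, with 12 at an unadjusted p under 0.05 (9.69%). Cdh19, a type II cadherin of glial lineages, had 22.9 to 32.0 CPM in CnB1KO_S6 and 29.9 to 39.5 CPM in CnB1KO_SD6 (log2 fold change 0.37, SE 0.13, adjusted p = 0.278). Pcdhga7 had 22.1 to 24.3 CPM in CnB1KO_S6 and 17.4 to 22.2 CPM in CnB1KO_SD6 (-0.22, SE 0.08, adjusted p = 0.305). The ranges overlapped in both genes. For Cdh19 CnB1KO_SD6 libraries 16 and 20 (30.1 and 29.9 CPM) lay within the CnB1KO_S6 range, and for Pcdhga7 library 16 (22.2 CPM) did. DESeq2 and limma voom called 0 members for deprivation in either genotype.

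Averaged over genotypes, deprivation called 4.69% of all genes and 0 members, with 9 at an unadjusted p under 0.05 (17.2%), and DESeq2 and limma voom again called 0. Cdh19 came nearest, at 0.29 (SE 0.10, adjusted p = 0.0923). Cdh11, a type II cadherin of mesenchymal cells and neurons, had -0.18 (SE 0.06, adjusted p = 0.133). Its level was 89.9 to 99.8 CPM in WT_S6 and 67.4 to 90.0 CPM in WT_SD6. In CnB1KO_S6 it was 80.3 to 96.8 CPM, and in CnB1KO_SD6 67.3 to 94.0 CPM. Cdh11 passed without CnB1KO_SD6 library 20 (adjusted p = 0.0337), the deprived CnB1KO library with the highest level, 94.0 CPM. Cdh19 passed with the cerebellar score and the library total together as covariates (adjusted p = 0.0432).

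Levels per gene length were highest for Pcdh9, Pcdh1, Pcdh10, Cdh2 and Cdh13, while other delta protocadherins were lower, down to 5.11 FPKM for Pcdh18. Means over the 19 libraries in FPKM (fragments per kilobase, scaled to depth) were 43.2 for Pcdh9, 32.8 for Pcdh1 and 23.3 for Pcdh7 among the delta-1 genes. Among the delta-2 genes they were 32.4 for Pcdh10, 19.9 for Pcdh17 and 11.4 for Pcdh8, the activity-induced protocadherin also called arcadlin. Cdh2, the N-cadherin of neural tissue, led type I with 31.1 FPKM, ahead of 7.56 for Cdh4 (R-cadherin) and 4.79 for Cdh15 (M-cadherin). Cdh22 led type II with 22.8 FPKM, followed by Cdh18 with 18.96 and Cdh8 with 18.2. Cdh13, or T-cadherin, which is held by a lipid anchor instead of a membrane span, had 30.6 FPKM. Pcdh15 and Cdh23, partners in the tip links of inner-ear hair cells, had 10.1 and 0.546 FPKM, and Pcdh20 had 6.41.

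The FPKM of Cdh22 also separated the genotypes, at 19.6 to 21.7 in WT and 22.3 to 27.0 in CnB1KO. Neighbours in this order often overlapped: over all libraries Cdh22 spanned 19.6 to 27.0 FPKM and Cdh18 17.4 to 21.7. Most clustered genes were lower, with a median of 2.99 FPKM over the 53, and the highest were C-type genes: Pcdhgc3 with 23.1, Pcdhac2 with 14.7 and Pcdhgc4 with 12.4. The leading variable genes were Pcdhga7 with 7.59 among the gamma genes, Pcdhb17 with 5.81, Pcdhb20 with 5.08 and Pcdhb9 with 4.93 in the beta array, and Pcdha12 with 2.52 and Pcdha9 with 2.48 in the alpha array. FPKM of genes with shared exons are uncertain: Pcdhga8 was listed at 0 FPKM in 3 libraries although its counts were 58 to 130 in all 19.

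**Figure D4:**
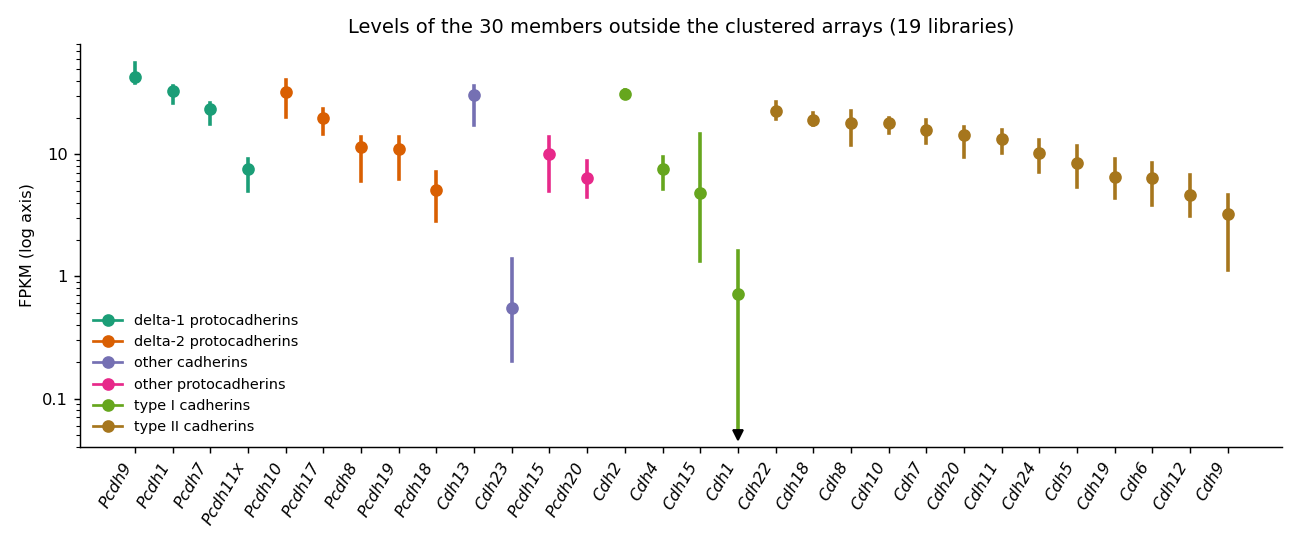
FPKM on a log axis for the 30 members outside the clustered arrays, ordered by subfamily and level; points are means over the 19 libraries, lines run from the lowest to the highest library, and the triangle marks Cdh1, listed at 0 in 2 libraries. Pcdh9 has the highest mean (43.2 FPKM) and Cdh23 the lowest (0.546), and the line of Cdh2 is hidden by its point.

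Members differed widely in how even they were. Cdh2 had an SD within groups of 0.06 on the log2 CPM scale, beside the 0.05 of Cdh22, while the median was 0.21 for the clustered genes and 0.14 for all genes. The largest SDs were those of Cdh1 (1.58), Cdh15 (1.14), Cdh23 (0.45) and Cdh9 (0.44). Cdh15 ran from 5.20 to 42.2 CPM after sleep and 5.31 to 55.5 CPM after deprivation in WT, and from 5.77 to 27.9 CPM and 5.18 to 27.3 CPM in CnB1KO. Each group thus held both low and high libraries, but the means of Cdh15 were 22.7 and 26.6 CPM in WT and 13.2 and 11.6 CPM in CnB1KO. Its log2 fold changes between genotypes were the lowest of all members: -0.74 after sleep, -1.17 after deprivation and -0.95 on average. None of them was called. Cdh1, the E-cadherin of epithelia, ran from 0 to 8.38 CPM.

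Several members varied with marker scores. Relations of the 83 members with 5 scores gave 415 tests over 19 libraries (Pearson r, 100000 permutations, 2-sided, adjusted over the 415), of which 59 passed. Cdh15 followed the cerebellar granule cell score with r = 0.92 and rho = 0.93 (adjusted permutation p = 0.00207 and 0.00277), and with r = 0.92 without the 2 libraries farthest from the median score. M-cadherin is known from cerebellar granule cells as well as from muscle. Pcdhgc3 followed the same score with r = 0.78 and rho = 0.85 (adjusted permutation p = 0.00461 and 0.00277; 0.76 without the 2 libraries). Of the 53 clustered genes 8 passed for this score, all positive, and 7 passed for the noradrenergic score, all negative. Over all genes 11.4% had a positive r with the cerebellar score, and 10.2% a negative r with the noradrenergic one, at least as far from 0 as the weakest relation that passed (0.59). Of the 30 others 3 were positive and 6 negative for the cerebellar score, and 8 positive and 3 negative for the noradrenergic one. At the same distance from 0, 7.51% of all genes had a negative r with the cerebellar score and 9.13% a positive r with the noradrenergic one. By that distance alone, without the adjusted p, 12 members were positive for the noradrenergic score, 0 of them clustered. The cerebellar and noradrenergic scores tended to run in opposite directions over the libraries, so relations with them are not independent. WT_SD6 library 8 had the lowest noradrenergic score (5.14) and the highest cerebellar one (7.67). CnB1KO_SD6 library 20 had a noradrenergic score of 6.61 and the lowest cerebellar one (4.37).

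Cdh13 followed the noradrenergic score with r = 0.89 and rho = 0.84 (adjusted permutation p = 0.00207 and 0.00277; r = 0.74 without the 2 farthest libraries). Cdh6, a type II cadherin, did so with r = 0.84 and rho = 0.76 (adjusted permutation p = 0.00207 and 0.00949; r = 0.73). WT_SD6 library 8 had the lowest noradrenergic score, 5.14, and the lowest Cdh13, 75.4 CPM. For oligodendrocytes Pcdh9 had r = 0.77 and rho = 0.77 (adjusted permutation p = 0.00461 and 0.00705; r = 0.71). Pcdh20 had r = -0.74 and rho = -0.72 with that score (adjusted permutation p = 0.00692 and 0.0153; r = -0.66), and r = -0.47 in deviations from the group means (adjusted permutation p = 0.181).

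Cdh5, the VE-cadherin of endothelium, followed the endothelial score with r = 0.76 and rho = 0.76 (adjusted permutation p = 0.00534 and 0.0083; r = 0.81 without the 2 farthest libraries), and it is not a gene of that score. Pcdhgc4 ran against the score with r = -0.79 and rho = -0.81 (adjusted permutation p = 0.00461 and 0.00311; r = -0.79), also in deviations from the group means (r = -0.75, adjusted permutation p = 0.00415). Cdh22 had r = 0.60 and rho = 0.64 with it (adjusted permutation p = 0.0466 and 0.0382; r = 0.50), and Pcdhgc5 had r = -0.72 and rho = -0.82 (adjusted permutation p = 0.00808 and 0.00346; r = -0.67). In deviations from the group means the r of Cdh22 changed sign, to -0.24 (adjusted permutation p = 0.572). That of Pcdhgc5 stayed negative at -0.34 (adjusted permutation p = 0.382), and both missed the threshold. For astrocytes 1 relation passed, Pcdhga2 with r = -0.67 and rho = -0.71 (adjusted permutation p = 0.024 and 0.0163; r = -0.57), and Pcdha12 came next with r = -0.52 and rho = -0.43 (adjusted permutation p = 0.096 and 0.2; r = -0.49).

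**Figure D5:**
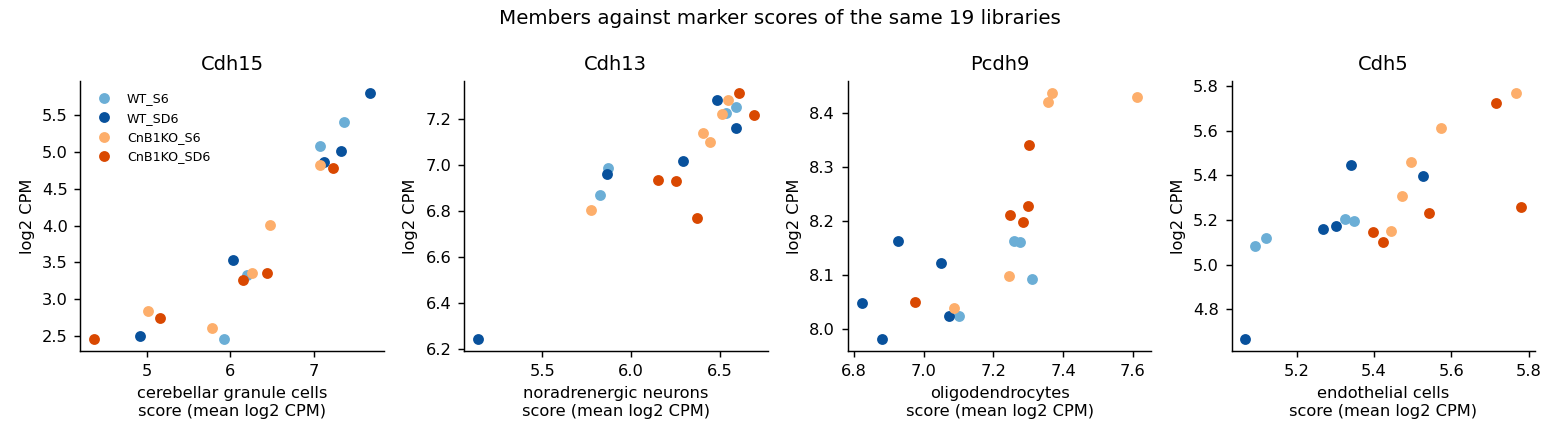
Log2 CPM of 4 members against the marker score (mean log2 CPM of the list) of a cell type in the same library, 1 point per library coloured by group. Cdh15 rises with the cerebellar granule cell score (r = 0.92), Cdh13 with the noradrenergic score (r = 0.89, with WT_SD6 library 8 at the lower left), Pcdh9 with the oligodendrocyte score (r = 0.77) and Cdh5 with the endothelial score (r = 0.76).

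Of 20 catenins and cytoplasmic partners, 2 rose in CnB1KO averaged over sleep states, as did 1.88% of all genes: Ctnna1, which links cadherin complexes to actin, 1.08-fold (adjusted p = 0.0349), and Ctnnbip1, an inhibitor of beta-catenin signalling, 1.13-fold (adjusted p = 0.0298). Of 15 effectors of protocadherins 1 rose, Ret, the receptor of GDNF-family ligands, which binds clustered protocadherins. Its level was 81.1 to 145.5 CPM after sleep and 82.6 to 140.9 CPM after deprivation in WT, and 131.4 to 176.7 CPM and 113.8 to 167.3 CPM in CnB1KO (1.37-fold on average, adjusted p = 0.0319). Its ranges overlap between genotypes. The noradrenergic score was 5.14 to 6.59 in WT and 5.77 to 6.69 in CnB1KO, and its part in the result for Ret was not tested.

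None of 18 atypical cadherins, 12 genes of cadherin cleavage and 15 genes of protocadherin promoter choice was called by edgeR in any of the 7 comparisons. The smallest p in each list was that of Celsr2, a flamingo cadherin, for deprivation averaged over genotypes (log2 fold change -0.13, SE 0.04, adjusted p = 0.073), of Aph1b, a subunit of gamma-secretase, for genotype averaged over sleep states (-0.15, SE 0.05, adjusted p = 0.0696), and of Stag1, a cohesin subunit, in the same comparison (-0.16, SE 0.07, adjusted p = 0.159). The 15 genes of promoter choice all had negative values for genotype averaged over sleep states, against 47.5% of all genes, with a median of -0.08. Sign counts as uneven occurred elsewhere: 18 of 18 atypical cadherins had negative values for deprivation in CnB1KO (all genes 52.8%), with a median of -0.13.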

How the data were processed

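The authors deposited a table of counts per gene for the 19 libraries and tables of FPKM per group; per the file headers both list gene symbols. Build GRCm38 and the tools HTSeq 2.0.4, StringTie 2.2.1, SAMtools 1.6, Picard 2.18.29, Trim Galore 0.6.10 and FastQC 0.12.1 come from the submitters' processing notes, which assign them no role; aligner: not given in the sources used here. Column names give the group and a running library number, so libraries were assigned to groups and are called by that number.

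Counts were TMM-scaled and tested with edgeR 4.0.16 (R 4.3.3, quasi-likelihood F test) in 1 fit of 4 groups with 15 residual degrees of freedom; filterByExpr kept all 14443 genes. FPKM were used for levels and, as log2(FPKM + pseudocount), in limma 3.58.1. Log2 CPM for scores used a prior count of 2. Alternatives were DESeq2 1.42.0, limma voom, RLE scaling, no filter, a mean count of at least 100, the compared groups alone, marker scores or the library total as covariates, FPKM, and each library left out. Added after seeing the data were the endothelial score, the cerebellar score with the library total, and leaving out libraries 8 and 13 together. The members, the lists and the tests were chosen with earlier results of these data known. The genes named were those called, Cdh22, the 2 smallest p of each comparison, the 3 highest levels of each subfamily, the 4 largest SDs, and the 2 smallest p for each score; list genes were those called or the smallest p. The edgeR step was tested on data simulated with 1 dispersion for all genes. For genotype after deprivation it recovered 4% of 1.2-fold, 90% of 1.5-fold and 100% of 2-fold changes (50 genes each), with 5 false calls. Changes near 1.2-fold could thus go uncalled, and larger ones too in genes noisier than the simulated ones. The median SD within groups was 0.21 on the log2 CPM scale for the members and 0.14 for all genes. In the same comparison Pcdhb13 was not called at a log2 fold change of -0.64. The p-values measure the spread between libraries, which the titles call biological replicates. Replicates differed by 1.38 to 19.1 times counting noise (chi-square per degree of freedom), so none was the same library entered again. Whether any came from the same animal cannot be told from these values. Annotation was GENCODE M21 (82 of 83 members matched) and RefSeq. Reads carry no strand: 6 unclustered members overlap an exon on the other strand (Cdh8, Cdh9, Pcdh10, Pcdh19, Pcdh7 and Pcdh8), by up to 21.1% of exon bases in Pcdh7. Clustered members with such an overlap include the called Pcdha12 (with Gm10545) and Pcdhga1 (with Gm37118). In Pcdhb12 it covers 63.5% of exon bases (with Gm37446).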

Additional observations from a re-analysis of the deposited data

Results flagged for a closer look

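Of 60 sets of group values checked, 2 held a library far from the others of its group, and chance alone marks about 1 in 20 such sets. The sets were the members described by library and the summed levels of the clustered arrays, in each group. Because the sums include members, the sets are not independent. Pcdha7 in WT_S6 library 3 stood at 5.58 CPM, while the other 3 libraries lay between 4.73 and 4.78 CPM; the gap was 0.935 of the group's range. Pcdhgc4 in WT_SD6 library 8 stood at 37.6 CPM, below the next library at 48.9 CPM, and the gap was 0.716 of the range. Library 8 also had the lowest noradrenergic score (5.14).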

How the results depend on the processing

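No paired analysis was possible because the columns carry running library numbers that are not the replicate numbers of the labels. No member was called for deprivation in WT, deprivation in CnB1KO, genotype after sleep or the interaction under any alternative run (33 or 34 each). For genotype after deprivation the count of 1 became 3 with DESeq2 (Cdh22, Pcdha12, Pcdhgc5), 0 with the compared groups alone, 0 with the oligodendrocyte score, and 1 to 2 with each library left out (2 without CnB1KO_SD6 library 16, with Pcdhgc5 added). For deprivation averaged over genotypes the count of 0 became 1 with the oligodendrocyte score (Pcdhgb6), 1 with the cerebellar score and library total (Cdh19), and 0 to 1 with each library left out (Cdh11 without CnB1KO_SD6 library 20). For genotype averaged over sleep states the count of 4 became 2 with a mean count of at least 100, 2 with the cerebellar score, 2 with the library total, 2 with both, 1 with the oligodendrocyte score, 1 with the endothelial score, and 1 in FPKM with either pseudocount. With each library left out it was 2 to 8: 2 (Cdh22 and Pcdhgc5) without libraries 2, 3 or 4 of WT_S6, 7 of WT_SD6, 12, 13 or 15 of CnB1KO_S6, or 18 or 19 of CnB1KO_SD6, and 8 without library 16 of CnB1KO_SD6. The filter at a mean count of 100 leaves Pcdha12 and Pcdhga1 untested; the cause of the other changes was not tested. No named fold change and no median of the clustered genes changed direction in the alternatives run. The count of negative clustered genes ranged from 31 to 45 after sleep and from 39 to 49 for deprivation in CnB1KO. Relations passing numbered 42 to 61 with each library left out.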
